A study of Macaca fascicularis with 34 samples.

Results

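SOX2, SOX3, SOX4, SOX11 and SOX15 are 5 members of the SOX family of transcription factors, chosen by name from the 19 SOX genes among 28551 genes measured in single cells of the cynomolgus monkey (Macaca fascicularis, subspecies fascicularis). They were followed across 34 cells to see which SOX gene was present in which cells. Each cell was measured by SC3-seq, which amplifies the complementary DNA of 1 cell and reads the 3′ ends of its transcripts. Per the labels, 25 cells came from embryos and 9 from male gonads, and no cell type, strain, genotype, treatment or animal is named. For embryos, 3 cells were of embryonic day (E) 13, 1 of E14, 11 of E16, 2 of E17 and 8 of E20. For gonads, 6 cells were of E36, 1 of E47 and 2 of E55. Levels are RPM, the reads of a gene scaled to the same total in each cell, a gene was counted as present in a cell from 15 RPM, and means are given ± the standard deviation (SD) between cells. With no animal named, cells of a stage were not taken as replicates, each stage counted as 1 sample, and no difference was tested.

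SOX proteins bind DNA through an HMG box and act with partner factors that decide which genes they switch on. SOX2 and SOX3 belong to the SOXB1 subgroup, and SOX2 works with POU5F1 in pluripotent epiblast and in mouse germ cells, whereas primordial germ cells of humans and monkeys, from which the gametes descend, use SOX17 in its place. SOX15 is the only member of the SOXG subgroup and is known from pluripotent and germ cells. SOX4 and SOX11 form the SOXC subgroup with SOX12, and are known from progenitor cells of mesenchyme and nervous system.

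SOX15 and SOX4 were the main members in these cells, SOX11 was present in a minority, and SOX2 and SOX3 were nearly absent. SOX15 reached 15 RPM in 29 of 34 cells and SOX4 in 34 of 34. SOX11 did so in 10 cells, SOX2 in 1 and SOX3 in 0. The cells without SOX15 were 5 E20 cells that also lacked NANOG, a pluripotency factor kept by germ cells, and 4 of those 5 held SOX11.

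Depth lay between 472188 and 3556592 reads per cell, with the shallowest cells at E13, where 15 RPM corresponds to as few as 7.08 reads. Grouped without any SOX gene, 26 cells formed a germ-cell-like cluster led by NANOG, NLRP2 and CPEB1, with 12 of 13 germ cell markers at a mean of at least 15 RPM against 5 of 10 mesoderm markers. The other 8 cells, E16 cell 8 and E20 cells 1 to 7, formed a mesoderm-like cluster led by HAPLN1, FN1 and HAND1, with 10 of 10 mesoderm markers but also 9 of 13 germ cell markers at that mean. E20 cell 5 within it held 8 of 13 germ cell markers. E16 cell 8 was mixed, with 9 of 13 germ cell, 9 of 10 mesoderm and 8 of 8 endoderm markers. Their summed levels in it were 1662, 2661 and 5340 RPM in that order. Amnion markers at that mean numbered 6 of 10 in the mesoderm-like and 2 of 10 in the germ-cell-like cluster, and HAND1 is on both the amnion and mesoderm lists. E20 cell 3 held 7 of 10 amnion and 7 of 10 mesoderm markers, and E20 cell 1 held 4 of 10 of each, so the name does not fix a cell type. E20 cells 1 to 7 carry the label code MS08, alone among the samples, so that code and most of the mesoderm-like cluster cannot be told apart. Summed over 9 markers of gonadal somatic cells, 8 of 9 gonad cells held at least 100 RPM, up to 20349 RPM in the E47 cell, and 10 of 25 embryo cells did so too, up to 362 RPM in E13 cell 1.

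**Figure D1:**
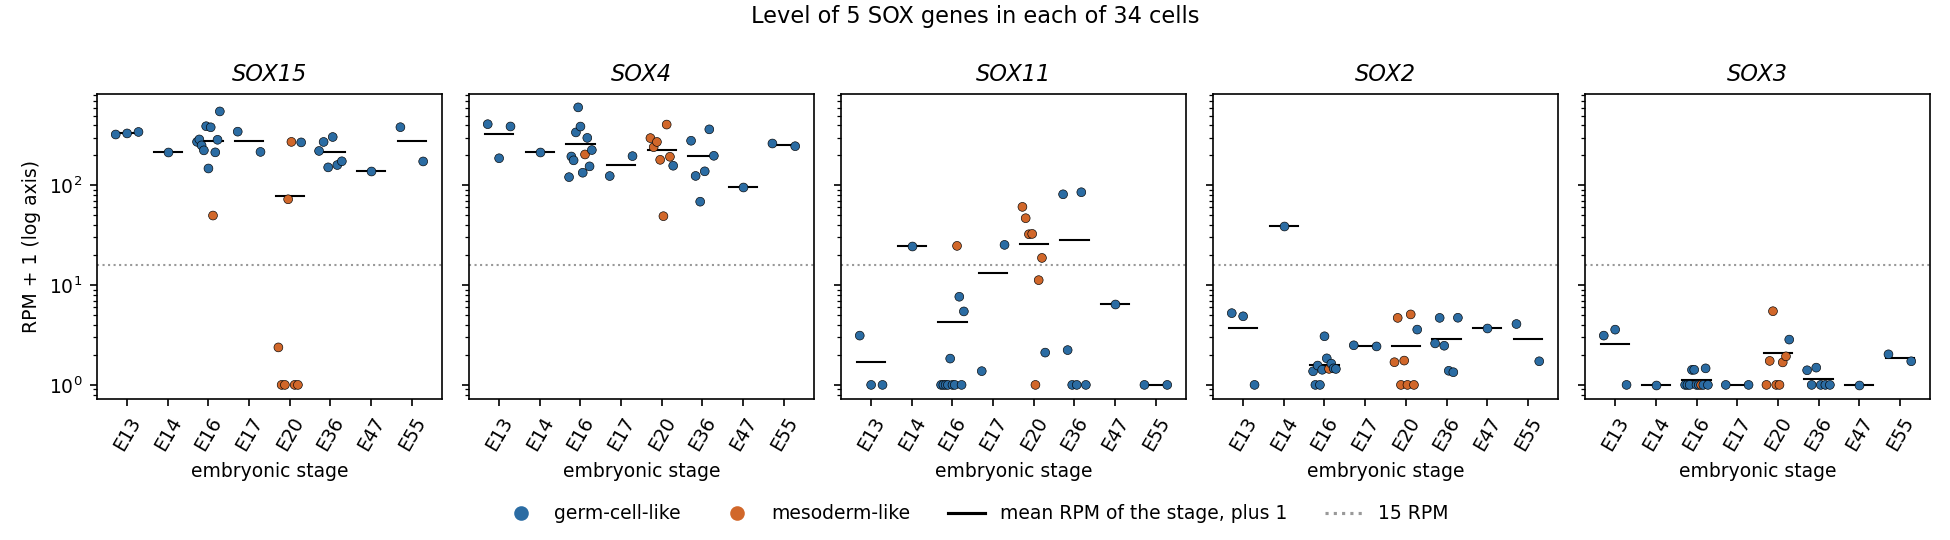
Level of each of the 5 genes in every cell, as RPM plus 1 on a log axis, by embryonic stage, with germ-cell-like cells in blue, mesoderm-like cells in orange, the mean of each stage as a bar and 15 RPM as a dotted line. SOX4 lies above the dotted line in all 34 cells, SOX15 lies below it in 5 E20 cells, and SOX2 lies above it in the E14 cell alone.

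SOX2, the SOXB1 factor of the epiblast, was present in a single cell. The E14 cell held 37.7 RPM, from 87 reads with an exact Poisson interval of 30.2 to 46.5 RPM, which covers counting error only. The other 33 cells held 0 to 4.24 RPM, the highest of them E13 cell 1, whose 2 reads allow 0.513 to 15.3 RPM. At E16 the 11 cells ran from 0 through a median of 0.447 to 2.07 RPM, and at E36 the 6 cells ran from 0.340 through 1.54 to 3.71 RPM. The E14 cell thus stood apart from every other stage, while all other stages overlapped with their neighbours in the order of mean level. Over all 34 cells SOX2 had 157 reads, 2.45 RPM (interval 2.08 to 2.86), of which the E14 cell gave 87.

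The E14 cell was in the germ-cell-like cluster, with 9 of 13 germ cell markers, 1241 RPM of SOX17 and 1434 RPM of NANOG. It lacked TFCP2L1, at 0 reads against a median of 155 RPM over all cells. CD38, DAZL and DDX4 were at 0 too, as were their medians. The E14 cell held 82.3 RPM of KIT, where the median was 226 RPM. Of 7 epiblast markers other than SOX2 it held 2 at 15 RPM, SFRP2 at 133 RPM, the highest of the 34 cells, and PRDM14 at 51.1 RPM, while FGF4, a known target of SOX2 and POU5F1, and OTX2 had 0 reads. Neural markers were at 15 RPM for 2 of 6, NES at 29.9 and ZIC2 at 69.3 RPM, with PAX6 and HES5 at 0. It held 5 of 10 mesoderm, 4 of 10 amnion and 3 of 8 endoderm markers as well, among them VTCN1 of the amnion at 45.5 RPM, the highest of the 34 cells, and FOXA1 of the endoderm at 112 RPM. It was also the only cell to reach 15 RPM of SOX14, a SOXB2 gene, at 42.0 RPM, and held 23.8 RPM of SOX11. Whether these transcripts belong with its SOX2 was not tested, and E14 and the label code MS13 have this single cell.

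SOX3, the SOXB1 gene of the X chromosome, stayed under 15 RPM everywhere. Its highest values were 4.47 RPM in E20 cell 3 (7 reads) and 2.58 RPM in E13 cell 2 (2 reads), and 20 cells had no read. All cells together held 25 reads, 0.390 RPM with an exact Poisson interval of 0.252 to 0.576. E20 cells held 15 of them, E13 and E16 cells 3 each, and E36 and E55 cells 2 each. The remaining SOXB1 gene, SOX1, was at 0 reads throughout, and a count of 0 at the summed depth allows up to 0.0468 RPM. That limit covers counting error only. The gene ID of SOX1, like that of SOX2, found no match in the RefSeq annotation read for neighbours. Whether its 3′ end was annotated so that reads could be counted was not tested.

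SOX15, the SOXG factor, was present in every germ-cell-like cell. The 26 germ-cell-like cells ran from 139.7 through a median of 269.6 to 549 RPM, with a mean of 269 ± 95.4 RPM. The 8 mesoderm-like cells ran from 0 through 0.687 to 271 RPM, with a mean of 49.1 ± 94.0 RPM, and 3 of them reached 15 RPM. The overlap between the clusters came from E20 cell 5 at 271 RPM, which stood inside the germ-cell-like range, while the next highest mesoderm-like cells, E20 cell 4 and E16 cell 8, lay below it.

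By stage, the 3 E13 cells held 322, 330.0 and 341 RPM of SOX15, the tightest group with an SD of 9.81, and the E14 cell held 215 RPM. The 11 E16 cells ran from 48.8 through 272 to 549 RPM, with a mean of 277 ± 132, and the lowest was the mesoderm-like cell 8. The 2 E17 cells held 344 and 215 RPM. Embryo cells before E20 were therefore all positive, and E13, E14 and E17 lay within the range of E16. The gonad cells were all positive as well: the 6 E36 cells ran from 150.2 through 196 to 304 RPM (213 ± 63.5), the E47 cell held 139.7 RPM and the 2 E55 cells 381 and 172 RPM. The E47 cell lay just below the range of E36, and E36 and E55 overlapped.

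E20 was split in 2 by SOX15. Cells 1 to 8 held 1.37, 0, 0, 71.5, 271, 0, 0 and 268 RPM in that order, so 3 cells were positive and 5 held 2 reads or fewer. In each of the 4 cells with 0 reads, a count of 0 allows at most 1.92 to 2.80 RPM, far below the 71.5 RPM of the lowest positive cell. The same 3 cells held NANOG at 124, 534 and 566 RPM, and the other 5 held at most 3.20 RPM of it. Only cell 8 of these 3 was germ-cell-like, and it shares the label code MS09 with the E16 cells. Cell 4 held 31.6 RPM of SOX11 and 35.4 RPM of SOX17 with 7 of 13 germ cell markers, so that low SOX15, low NANOG and SOX11 were found in 1 cell.

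Across the 34 cells SOX15 and NANOG had a Pearson correlation of 0.974 and a Spearman correlation of 0.689 in log2(RPM + 1). Over the 26 germ-cell-like cells the values were 0.402 and 0.415. SOX17, the germ cell SOX gene, gave 0.836 and 0.653 over all cells, and 0.388 and 0.378 over the germ-cell-like ones. E20 cell 1 departed from this relation with 331 RPM of SOX17 beside 1.37 RPM of SOX15. To a lesser degree so did E20 cell 7, with 32.6 RPM of SOX17 beside 0 RPM of SOX15. Among 9583 genes present in at least 5 cells, the 5 closest to SOX15 by Spearman correlation over 34 cells were RPS23, a ribosomal protein gene (0.794), DDIT4L (0.757), DOCK11 (0.730), TFCP2L1, a naive pluripotency factor (0.726), and POU5F1 (0.719). Within the germ-cell-like cluster these 5 stood at 0.657, 0.523, 0.497, 0.488 and 0.480. The points share the library and its depth, and the correlations are descriptions of these cells.

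**Figure D2:**
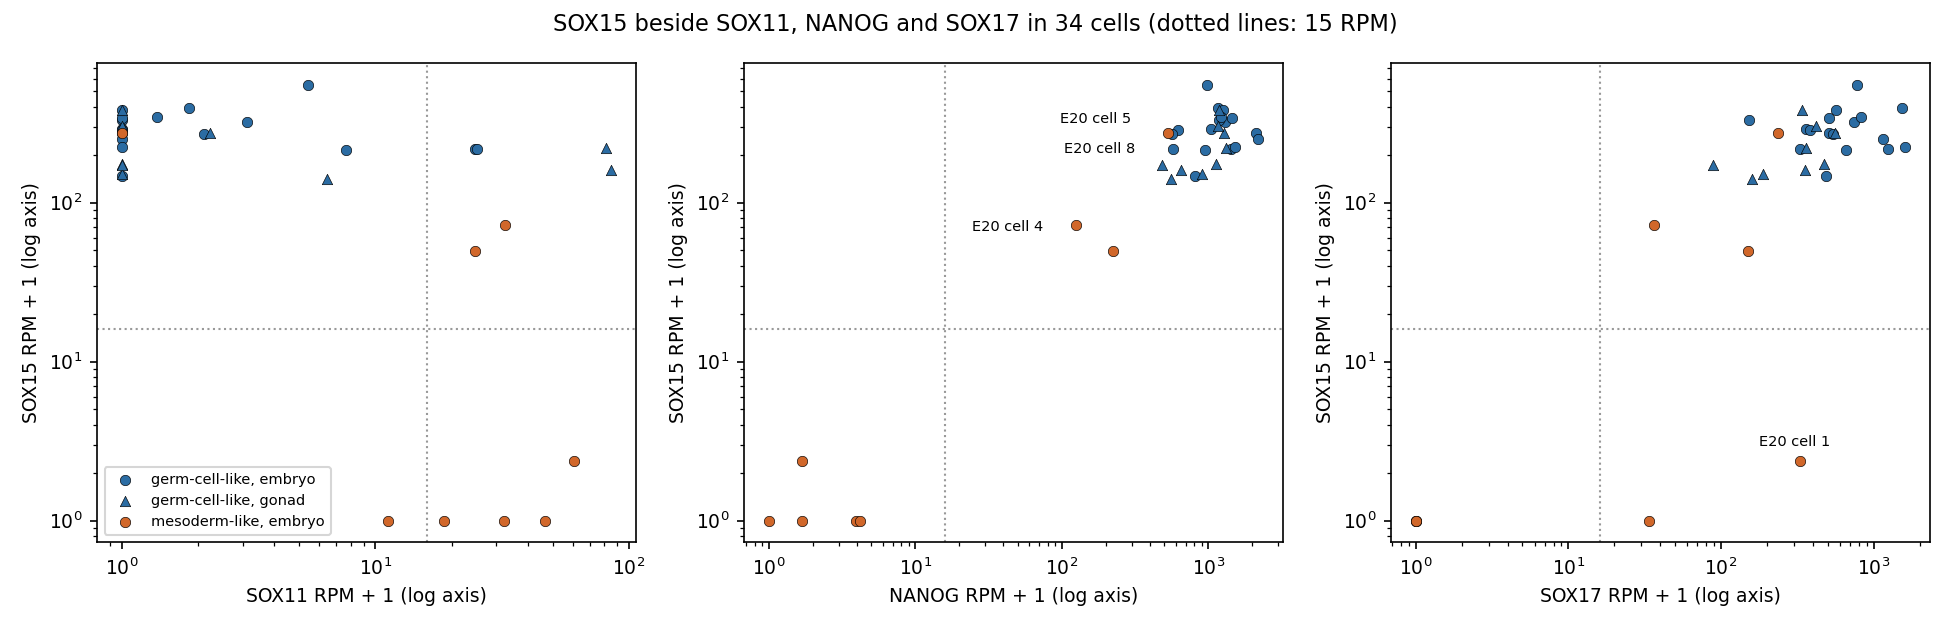
SOX15 in each cell, as RPM plus 1 on log axes, against SOX11, NANOG and SOX17, with dots for embryo cells, triangles for gonad cells and dotted lines at 15 RPM. The 5 cells without SOX15 also lack NANOG, and the cells rich in SOX11 fall on both sides of the SOX15 line. E20 cell 1 and, at a lower level, E20 cell 7 hold SOX17 without SOX15.

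SOX4, the SOXC factor with the broadest expression, was present in every cell of both clusters. It ran from 48.0 to 603 RPM with a mean of 232 ± 117. The germ-cell-like cells averaged 233 ± 123 RPM and the mesoderm-like cells 229 ± 103, with ranges of 67.5 to 603 and 48.0 to 405 RPM. The 2 clusters thus overlapped almost entirely, in contrast to SOX15.

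By stage, SOX4 was at 409, 186 and 388 RPM in the 3 E13 cells and at 214 RPM in the E14 cell. The 11 E16 cells ran from 119.7 through 203 to 603 RPM (257 ± 143), and the 2 E17 cells held 123 and 195 RPM. The 8 E20 cells ran from 48.0 through 216 to 405 RPM (223 ± 106). In the gonad the 6 E36 cells ran from 67.5 through 167 to 363 RPM (194 ± 109), the E47 cell held 94.3 RPM and the 2 E55 cells 261 and 246 RPM. In the order of mean level, from E13 down to E47, neighbouring stages overlapped except E17 and E47. The spread between cells of a stage was wider than most distances between stage means.

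The 5 genes closest to SOX4 over the 34 cells were KIF2C (Spearman correlation 0.785), HN1 (0.746), DLGAP5 (0.707), KIAA0649 (0.700) and CENPE (0.694). KIF2C and CENPE encode kinesins of the mitotic spindle, and DLGAP5 a spindle protein. Within the 26 germ-cell-like cells KIF2C stood at 0.793, DLGAP5 at 0.733 and CENPE at 0.654. MKI67, a marker of cycling cells looked at beside this rule, had a Pearson correlation of 0.517 and a Spearman correlation of 0.535 with SOX4 over all cells, and of 0.671 and 0.603 over germ-cell-like cells. SOX4 at 603 RPM in E16 cell 5 went with 309 RPM of MKI67, and SOX4 at 67.5 RPM in E36 cell 3 with 0 RPM. Several cells went the other way, among them E20 cell 5, with the lowest SOX4 and 146 RPM of MKI67. E36 cell 1 held 279 RPM of SOX4 beside 8.83 RPM of MKI67, and E55 cell 1 held 261 RPM beside 0 RPM. The number of reads per cell had a Spearman correlation of -0.0698 with SOX4.

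SOX11, the other SOXC gene among the 5, was present in 10 of 34 cells and was below SOX4 in every cell. It reached 15 RPM in 6 of 8 mesoderm-like cells and in 4 of 26 germ-cell-like cells, and 15 cells had no read. E20 cells 1 to 8 held 59.8, 45.8, 31.3, 31.6, 0, 10.2, 17.7 and 1.11 RPM in that order. The E20 cells with 0 and 1.11 RPM were cells 5 and 8, those with the highest SOX15. Among the 11 E16 cells, the mesoderm-like cell 8 held 23.7 RPM and the others 0 to 6.64 RPM, with no read in 7 of them. The mesoderm-like cells averaged 27.5 ± 19.2 RPM and the 17 germ-cell-like embryo cells 3.74 ± 7.86 RPM.

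The 4 germ-cell-like cells with SOX11 were the E14 cell (23.8 RPM, 55 reads), E17 cell 2 (24.3 RPM, 68 reads), E36 cell 1 (80.3 RPM, 200 reads) and E36 cell 5 (84.2 RPM, 248 reads). The values of the 2 E36 cells were the highest of all cells, with intervals of 69.5 to 92.2 and 74.1 to 95.4 RPM. The other 4 E36 cells held 0 to 1.23 RPM, the E47 cell 5.44 RPM and the 2 E55 cells 0, which allows up to 1.27 RPM over both. The stage was therefore split into 2 cells with much SOX11 and 4 with almost none.

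E36 cells 1 and 5 also held the most transcripts of gonadal somatic cells among the E36 cells, 403 and 1039.7 RPM summed over 9 markers, where the other 4 held 20.9 to 220.2 RPM. In cell 5, WT1 stood at 141, LHX9 at 330.0 and NR2F2 at 222 RPM, with AMH and CYP17A1 at 0. In cell 1, LHX9 stood at 57.4 and NR2F2 at 83.5 RPM, with WT1, NR5A1, AMH and CYP17A1 at 0. GATA4, which is also a marker of endoderm, gave 257 RPM of the sum in cell 1 and 256 RPM in cell 5, and stood at 247 RPM in E17 cell 1 and 234 RPM in E16 cell 8 of the embryo. The E47 cell, with 20349 RPM of these markers, held 5.44 RPM of SOX11. E17 cell 2 held 7 of 10 mesoderm markers and 3 of 8 endoderm markers, with FOXA2 at 191 and GATA6 at 270 RPM, and OTX2 at 246 RPM, each the highest of the 34 cells. It was the sole germ-cell-like cell that joined the other cluster when cells were grouped by average linkage of 2000 genes. The part of somatic or mesodermal transcripts in these SOX11 values was not tested.

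The 5 genes closest to SOX11 over the 34 cells were ENO1, a glycolytic enzyme (Spearman correlation 0.770), ANAPC16 (0.741), PHC2, a polycomb protein (0.730), PGAP1 (0.728) and HMGA2, a chromatin protein of fetal cells (0.722). HMGA2 averaged 651 RPM in the mesoderm-like and 42.0 RPM in the germ-cell-like cells, and ENO1 947 and 321 RPM. Within the 26 germ-cell-like cells the 5 genes stood at 0.641, 0.597, 0.547, 0.598 and 0.581. With 15 cells at 0 many ranks are tied, and how far the correlations rest on the cells that hold SOX11 was not tested. For SOX2 and SOX3 the closest genes, MCM5 (0.595) and PCYOX1L (0.620), rest on a few reads per cell and are given as values only.

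Of the 10 cells with SOX11, 6 also held SOX15, and the other 4 were E20 cells of label code MS08. SOX15 alone was present in 23 cells, SOX11 alone in 4 and neither in 1, E20 cell 6, whose 10.2 RPM of SOX11 lay under the limit. The 6 cells with both were the E14 cell, E16 cell 8, E17 cell 2, E20 cell 4 and E36 cells 1 and 5. The 4 cells with SOX11 alone were E20 cells 1, 2, 3 and 7. Over the 34 cells the Pearson correlation of the pair was -0.579 and the Spearman correlation -0.546, against -0.261 and -0.208 among germ-cell-like cells.

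The SOX gene with the highest RPM in a cell was SOX17 in 23 cells, SOX4 in 7, SOX15 in 3 and SOX13 in 1. These orders set different genes side by side, and since the assay counts 3′ ends they are not scaled by length and depend on how each gene's 3′ end was annotated. SOX17 led in 22 of 26 germ-cell-like cells but in 1 of 8 mesoderm-like cells. With SOX17 set aside, SOX15 led in 16 germ-cell-like cells and SOX4 in the other 10, whereas in the mesoderm-like cells SOX4 led in 5 and SOX15, SOX13 and SOX7 in 1 each. SOX15 exceeded SOX4 in 17 of 34 cells, 16 of them germ-cell-like.

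As a share of the summed RPM of the 19 SOX genes, SOX15 had a median of 26.0% in germ-cell-like cells (10.1% to 46.9%) and 0.0524% in mesoderm-like cells (0% to 41.3%). SOX4 had a median of 19.1% in germ-cell-like cells (8.05% to 38.0%) and 44.6% in mesoderm-like cells (7.31% to 74.3%), although its level was much the same. SOX11 reached at most 11.1%, in a mesoderm-like cell, and SOX2 at most 1.99%, in the E14 cell. SOX17 itself had medians of 44.7% and 7.52% in the 2 clusters.

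**Figure D3:**
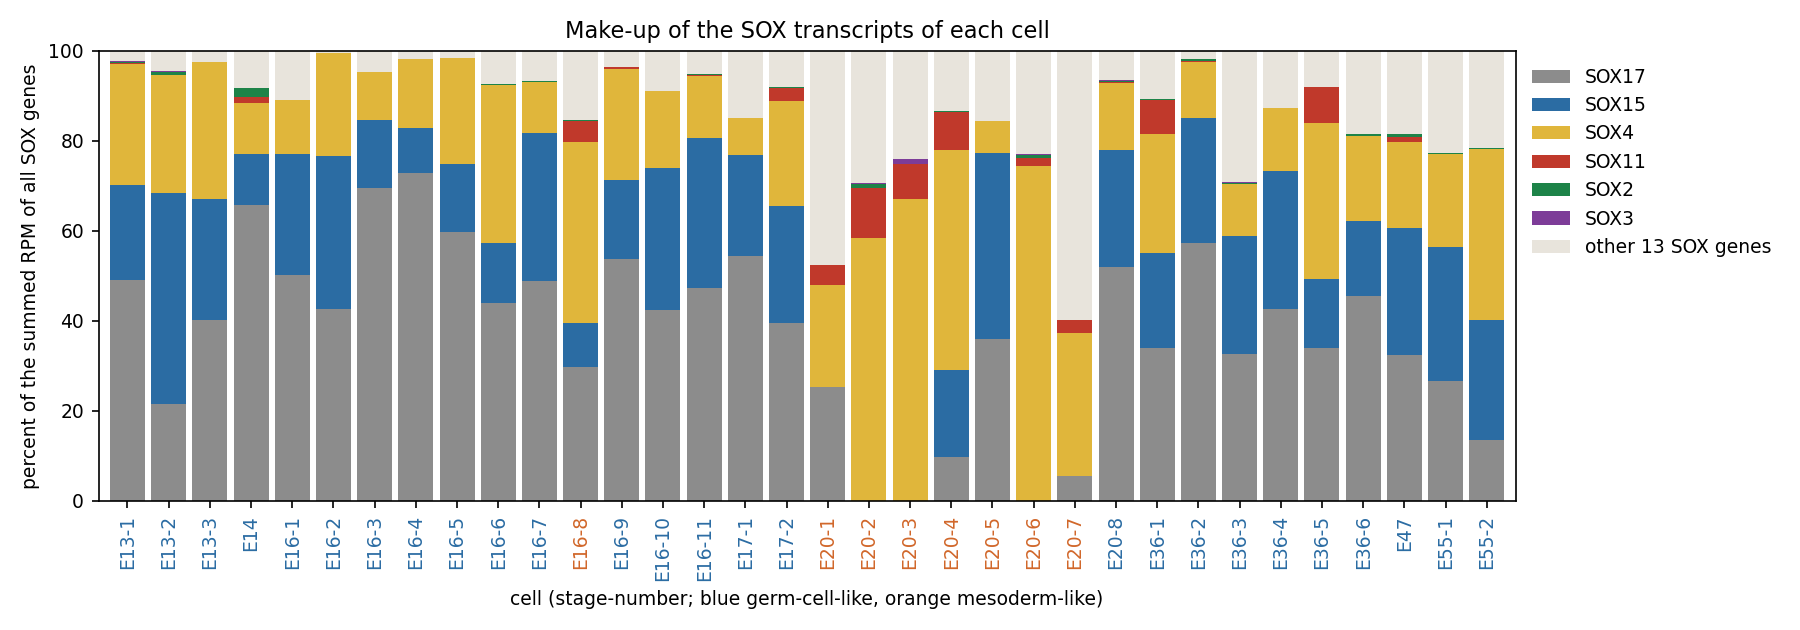
Share of each SOX gene in the summed RPM of 19 SOX genes, in percent, as 1 stacked bar per cell, with cell names in blue for germ-cell-like and orange for mesoderm-like cells. SOX17, SOX15 and SOX4 fill most of each germ-cell-like bar, while E20 cells 2, 3 and 6 have neither SOX17 nor SOX15 and SOX4 fills most of the bar.

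Groups of cells were compared by the difference of mean log2(RPM + 1) over genes that averaged 1 RPM or more in either group, and 2-fold was the size taken as a call. Gonad cells were first set against embryo cells, of which 17 were germ-cell-like and 8 mesoderm-like, so tissue and cluster both differ between the groups. SOX15 averaged 219 ± 83.0 RPM in 9 gonad and 217 ± 149 RPM in 25 embryo cells, with medians of 173 and 250.2 RPM. Its difference on the log2 scale was 1.31, where the 5 embryo cells without SOX15 weigh more than in the mean RPM, and it had the opposite sign, -0.53, between the medians over cells. Within the germ-cell-like cluster SOX15 was at 219 ± 83.0 RPM in gonad and 296 ± 92.7 RPM in embryo cells, a difference of -0.45. Within the label code MS11, which the gonad cells share with the 2 E17 cells, it was -0.39.

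Of 4 measured members 1, SOX15, was at least 2-fold higher in gonad cells, where 7.62% of 15245 genes were, and 0 were at least 2-fold lower, where 15.1% were. With so few members, these counts add nothing to the values. SOX4 was at 196 ± 98.1 RPM in gonad and 245 ± 122 in embryo cells (-0.33). SOX11 was at 19.0 ± 35.9 and 11.4 ± 16.6 RPM, with a log2 difference of -0.26 that goes against its means, since 2 gonad cells hold nearly all of its gonad reads. For SOX2 the difference was 0.34, at 1.97 ± 1.36 and 2.67 ± 7.42 RPM, and SOX3 was not measured. The ranges of the 2 groups overlapped for all 5 genes.

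E20 was set against E16 as the embryo stages with the most cells. Mean SOX11 at E20 was 7.62 times that at E16, 24.7 ± 21.4 against 3.24 ± 7.15 RPM, a log2 difference of 2.80. Summed reads gave 22.8 RPM (20.2 to 25.7) against 3.17 RPM (2.53 to 3.91), and 53 of the 86 reads at E16 came from the mesoderm-like cell 8. SOX15 was 3.62-fold lower in mean RPM, 76.5 ± 122 against 277 ± 132 RPM. Its difference of mean log2(RPM + 1) was larger, -4.97, as the 5 E20 cells without SOX15 weigh more on that scale. SOX4 was at 223 ± 106 against 257 ± 143 RPM (-0.23), SOX2 at 1.48 ± 1.72 against 0.568 ± 0.555 RPM (0.41) and SOX3 at 1.08 ± 1.51 against 0.118 ± 0.202 RPM (0.67). Of 5 measured members, SOX11 was called higher, where 13.9% of genes were, and SOX15 lower, where 18.9% were. SOX3 was measured through its E20 cells alone.

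The stages differed in cluster, with 7 of 8 E20 cells and 1 of 11 E16 cells mesoderm-like. E20 cell 8 alone, which shares MS09 with the E16 cells, differed from them by 0.16 for SOX15 and 0.09 for SOX11. Between the 8 mesoderm-like and 17 germ-cell-like embryo cells, SOX15 differed by -5.51 and SOX11 by 3.13, and SOX4 by -0.17. There 1 of 4 measured members was called higher, against 20.9% of 15140 genes, and 1 lower, against 11.6%. The clusters were built from other genes of the same cells, so these are descriptions of how the 5 genes fall along them.

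E36 was set against E16 as the gonad and embryo stages with the most cells, and shares its E16 cells with the comparison above. SOX15 was at 213 ± 63.5 against 277 ± 132 RPM (-0.23) and SOX4 at 194 ± 109 against 257 ± 143 RPM (-0.44), both within the spread between cells. SOX2 differed by 0.76, at 1.87 ± 1.52 against 0.568 ± 0.555 RPM, levels of a few reads. SOX11 was called higher by 1.33, at 27.6 ± 42.3 against 3.24 ± 7.15 RPM, the only call among 4 measured members, where 7.28% of 14293 genes were higher and 30.2% lower. Without E36 cell 1 its difference was 0.52 and without cell 5 it was 0.51, both under 2-fold. Without both cells, left out for their somatic transcripts after the values were seen, it was -0.70.

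**Figure D4:**
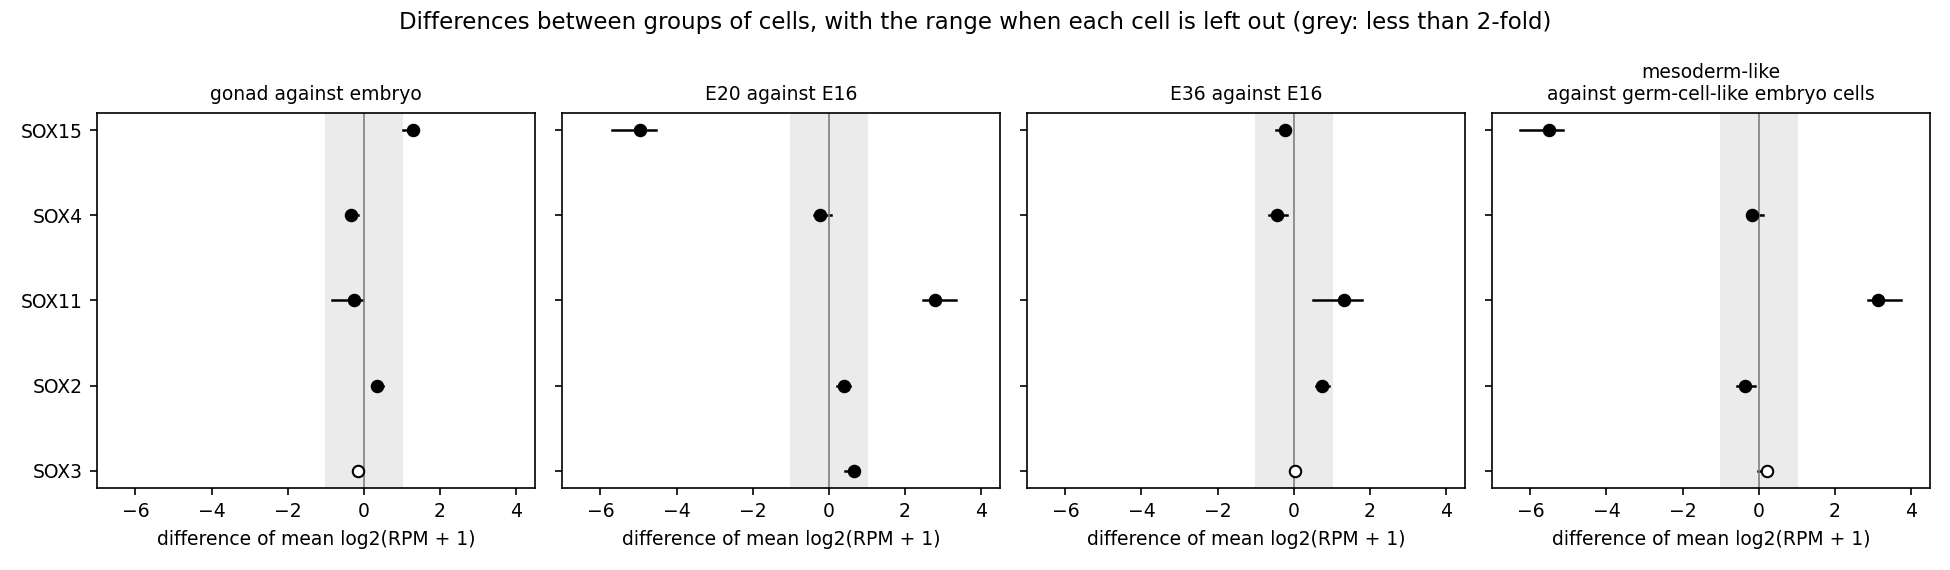
Difference of mean log2(RPM + 1) for each gene in the 4 comparisons, with a filled dot for a measured and an open dot for an unmeasured gene, a line from the lowest to the highest value when each cell is left out, and grey for less than 2-fold. SOX15 lies far to the left and SOX11 to the right for E20 and for mesoderm-like cells, and for E36 the line of SOX11 reaches into the grey band.

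The rest of the SOX family held 14 genes in the table, and several were present in scattered cells. Over the family, 4 of 15 measured genes were called between gonad and embryo, 3 higher, where 7.62% of all genes were, and 1, SOX7, lower, where 15.1% were. SOX9 stood higher there, at 33.2 ± 31.0 against 6.82 ± 15.4 RPM, as did SOX13, at 78.1 ± 84.2 against 39.1 ± 54.98 RPM. SOX9 drives testis development in Sertoli cells. It stood at 74.2 RPM in E36 cell 1 and 2.72 RPM in E36 cell 5, those with the most somatic transcripts at E36. The highest gonad value of SOX9, 84.3 RPM, was in E36 cell 4, and the part of somatic transcripts in it was not tested. Between mesoderm-like and germ-cell-like embryo cells 7 of 14 were called, 5 higher (SOX11, SOX6, SOX13, SOX8 and SOX7) beside 20.9% of all genes and 2 lower (SOX17 and SOX15) beside 11.6%, with a median of -0.22 where all genes had 0.15. Between E20 and E16 6 of 14 were called, 3 higher beside 13.9% of all genes and 3 lower beside 18.9%, with a median of 0.54 against -0.12 for all genes. SOX12, the third SOXC gene, was among the 3 lower genes (-1.14), with medians of 2.89 RPM at E20 and 19.5 RPM at E16. Its means were close, 20.6 ± 39.8 and 20.9 ± 15.3 RPM, with 117 RPM in E20 cell 2. SOX12 was also called lower at E36 against E16 (-1.15).

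Genes known as partners or targets of SOX2 and POU5F1 were found largely without SOX2. Between mesoderm-like and germ-cell-like embryo cells 12 of 15 measured genes were called, 5 higher, where 20.9% of all genes were, and 7 lower, where 11.6% were, with a median of -0.10. Among the lower genes, POU5F1 was at 699 ± 449 against 4082 ± 1349.8 RPM, NANOG at 111 ± 189.6 against 1200.4 ± 467 RPM and TDGF1, a NODAL co-receptor gene, at 32.7 ± 65.2 against 184.5 ± 171 RPM. Among the higher genes, the growth factor gene FGF4 was at 187 ± 286 RPM in mesoderm-like cells and 0 in the germ-cell-like embryo cells, and DNMT3B, a DNA methyltransferase gene, at 122 ± 61.5 against 59.1 ± 84.2 RPM. SOX2 in the same 8 mesoderm-like cells was at most 4.08 RPM. Between gonad and embryo 8 of 15 were called, 3 higher and 5 lower, where 7.62% and 15.1% of all genes were. Between E36 and E16 6 of 14 were called, all lower, where 30.2% of all genes were. Between E20 and E16 12 of 15 were called, 5 higher and 7 lower, where 13.9% and 18.9% of all genes were, and these were the same genes as between the clusters.

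Genes known as SOXC targets or of neurons numbered 8 or 9 measured in each comparison. Between mesoderm-like and germ-cell-like embryo cells, TEAD2, a factor of the Hippo pathway, was higher at 150.2 ± 89.0 against 56.8 ± 47.4 RPM, with SEMA3C and DBN1, and TUBB3 was lower, 4 of 9 measured genes in all, where 20.9% of all genes were higher and 11.6% lower. Their median of 0.27 stood beside 0.15 for all genes. Between E20 and E16 1 of 9 was called, TUBB3, lower like 18.9% of all genes. Between gonad and embryo 1 of 9 was called, DBN1, lower like 15.1% of all genes. Between E36 and E16 4 of 8 were lower, where 30.2% of all genes were, with a median of -1.04 where all genes had -0.48. MEX3A was at 19.7 ± 13.9 against 70.2 ± 51.4 RPM and DBN1 at 24.8 ± 30.7 against 58.2 ± 33.2 RPM.

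In the table SOX2 lies on chromosome 2, SOX3 on X, SOX4 on 4, SOX11 on 13 and SOX15 on 16, each listed as protein-coding. In the RefSeq annotation of assembly T2T-MFA8v1.1, which need not be the build of the table and was read for neighbours only, SOX15 overlaps MPDU1 and a long noncoding RNA gene that was not analysed here. Reads of 2 overlapping genes could be mixed if strand was not used, which the sources used here do not state. MPDU1 ran from 0 through a median of 0.995 to 50.4 RPM with 14 cells at 0, and its Spearman correlation with SOX15 was -0.251. FXR2, planned as a neighbour too but not among the genes that overlap SOX15, reached 135 RPM in E16 cell 2. Its Spearman correlation with SOX15 was 0.306 over all cells and 0.0455 over the germ-cell-like cells. SOX4 overlaps a pseudogene that held at most 8.62 RPM and was at 0 in 32 cells. SOX2, matched by symbol because its gene ID in the table found no match, overlaps a gene that was not analysed here.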

How the data were processed

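The 34 cells were mapped to stage and tissue by their labels, and the columns of the table by sample title. The authors deposited 1 table of log2 values, log2(RPM + 1) per gene. The sums of the back-transformed columns, 992085 to 995710, bear out this scale. The authors thus scaled the reads of each library to a common total (RPM). Per the submitters' processing notes, TopHat 1.4.1, Cufflinks 2.2.0 and cutadapt 1.3 were used, in roles not stated. For genome build, annotation and strand setting, no source used here gives an entry.

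Values were back-transformed to RPM. Low values were whole multiples of the value of 1 read for 99.75% to 99.98% of genes per cell, within 0.1 read, which gave depths of 472188 to 3556592 reads (median 2001689). Intervals are exact Poisson at 95%, a count of 0 is read as up to 3 reads, and both cover counting error only, as amplified cDNA without molecular identifiers was read. Cells were clustered into 2 by Ward linkage on the 500 most variable genes without SOX genes. Markers of a cluster exclude SOX genes. No difference was tested and no p-value was computed, because each stage counts as 1 sample. Python 3.11.15, numpy 2.4.6, pandas 2.3.3 and scipy 1.17.1 were used, and the scripts were tested on simulated data.

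The members, lists and markers were chosen with earlier results of these data known. Named genes were the 5 members, the other SOX genes, up to 4 genes of each list by level or difference, overlapping genes and FXR2. Per member, the 5 genes with the highest Spearman correlation were named too. They were taken from genes with a human symbol at 15 RPM in at least 5 cells. MKI67 and values of single cells were added after they were seen. Of 20 SOX family genes listed, 19 were in the table, where SRY was not matched, and 17 of these gene IDs matched the RefSeq table. Alternatives were another pseudocount, medians over cells, ratios of mean RPM, no filter on low values, size factors, other clusters, single label codes, and leaving out each cell. No sequence is shown, as none was used here.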

Additional observations from a re-analysis of the deposited data

Results flagged for a closer look

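SOX4 in E20 cell 5 was the lowest of the 8 E20 cells at 48.03 RPM. The next lowest cell held 156.0 RPM, and on the log2(RPM + 1) scale, on which cells were screened, this gap was 0.551 of the range of the 8 cells, above Dixon's 95% critical value of 0.526. On the RPM scale it was 0.302 of the range, under that value. The screen covered 10 groups, the 5 genes at E20 and at E36, and chance marks about 1 in 20 such groups. The same cell held 271 RPM of SOX15, the highest of the E20 cells, and 0 reads of SOX11. It also held 8 of 13 germ cell and 6 of 10 mesoderm markers at 15 RPM.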

How the results depend on the processing

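No paired analysis was possible because the labels number no replicates and nothing was tested. The 2 alternatives marked "chosen later" were added after seeing the data. SOX15 lower and SOX11 higher at E20 and in mesoderm-like cells kept their direction and stayed past 2-fold under each change of scale or filter and without any single cell. SOX15 reversed between E20 and E16 within label code MS09 (0.16, 1 E20 cell), where SOX11 was at 0.09. Between gonad and embryo it reversed with medians over cells (-0.53), among germ-cell-like cells alone (-0.45) and within MS11 (-0.39). SOX11 between E36 and E16 reversed without E36 cells 1 and 5 (-0.70, chosen later). The causes were not tested.

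Members called between gonad and embryo numbered 0 with a pseudocount of 10 RPM, with ratios of mean RPM, within the germ-cell-like cluster and within MS11, and 2 without the gonad cells at 100 RPM of somatic markers, which leaves 1 gonad cell, E36 cell 2, against 25 embryo cells. Between E36 and E16 they numbered 0 with a pseudocount of 10 RPM, with medians over cells and without E36 cells 1 and 5, and 0 to 1 when each cell was left out in turn. Between gonad and embryo, medians over cells moved the call from SOX15 to SOX11, lower in gonad cells at a median of 0 against 1.11 RPM, both under 15 RPM. Cells with SOX11 and with SOX2 numbered 3 and 0 at 50 RPM. Thinning every cell to the shallowest depth changed no count of cells.

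Calls in the SOX family with a pseudocount of 10 RPM numbered 1 between gonad and embryo, 3 between E20 and E16, 1 between E36 and E16 and 3 between the clusters. Between E36 and E16 they numbered 2 with medians over cells or with ratios of mean RPM, and 2 to 4 leaving out each cell in turn. For partners and targets of SOX2 and POU5F1, gonad against embryo gave 4 calls with a pseudocount of 10 RPM or medians over cells and 5 among germ-cell-like cells. For E20 against E16 it was 7 with that pseudocount and 6 within MS09.

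SOXC targets were called between gonad and embryo in numbers of 3 with medians over cells, 5 with ratios of mean RPM, 2 within the germ-cell-like cluster, 6 within MS11, 3 without the gonad cells at 100 RPM of somatic markers (again 1 gonad cell), 3 without E55 cell 2, E36 cell 5 and the E47 cell (chosen later), and 1 to 2 leaving out each cell in turn. Between E20 and E16 they numbered 0 with a pseudocount of 10 RPM, 2 with medians over cells, 3 with ratios of mean RPM, 4 within MS09, 4 within the germ-cell-like cluster, and 1 to 3 leaving out each cell. Between E36 and E16 they numbered 2 with that pseudocount and 2 with medians over cells. Between the clusters they numbered 1 with that pseudocount, and 2 with medians over cells or with average linkage of 2000 genes, which changes linkage and gene number together.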

Other observations

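E20 cell 1 held the 3 SOXF genes together, SOX7 at 319.6 RPM, SOX17 at 331 RPM and SOX18 at 196 RPM, beside 1.37 RPM of SOX15, 296 RPM of SOX4 and 59.8 RPM of SOX11. SOXF genes are known from endothelium, the lining of blood vessels. A list of 9 endothelial genes, chosen after these values were seen, had 6 members at 15 RPM in this cell. CDH5 stood at 1202, CD34 at 636, KDR at 598 and TIE1 at 107 RPM, each above its value in every other cell, where CDH5 and CD34 reached at most 27.6 and 44.5 RPM. PECAM1 at 317 and TEK at 178 RPM were higher in other cells, at 724 RPM in E13 cell 1 and 246 RPM in E20 cell 4. ERG at 12.4 and TAL1 at 10.3 RPM lay under 15 RPM, though above every other cell, and ETV2 was at 0. SOX18 was at most 6.51 RPM in the other 33 cells.

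Single cells also stood out for SOX genes outside the members. E17 cell 1 held 154.5 RPM of SOX5 and 64.6 RPM of SOX7. E20 cell 7 held 242.5 RPM of SOX13, more than its 192 RPM of SOX4, and E20 cell 6 held 121 RPM of SOX13. E55 cell 1 held 269.5 RPM of SOX13, and E55 cell 2 20.3 RPM of SOX10.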
